A study of Nannospalax ehrenbergi and Mus musculus with 25 samples.

Results

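Imprinted genes are transcribed mainly from the copy inherited from a single parent, and many of them act on growth before birth. The 8 genes described here, Igf2, H19, Dlk1, Mest, Peg3, Cdkn1c, Plagl1 and Grb10, were chosen by their names as growth genes of this kind, with the differences between tumor and uninjected tissue in these same libraries already known. Those differences are therefore given as descriptions, and counts of members past a threshold there stand only beside the share of all genes. All 8 have a row among the 47593 genes of the mouse table and 7 among the 27988 genes of the Spalax table, in which no row carries the name H19. Each gene with a row passed the filter on low values in every comparison of its species.

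RNA-Seq reads of 25 libraries were analysed, made from muscle and tumor of the blind mole rat Spalax (Nannospalax ehrenbergi), a long-lived subterranean rodent, and of the C57BL/6 mouse. Treated animals had received a single subcutaneous dose of 3-methylcholanthrene (3MCA), a hydrocarbon that damages DNA and induces sarcomas, namely 1 mg in Spalax and 200 µg in mice aged 3 to 4 months. Where a tumor grew, the tumor itself was sampled as the injected side (IS), together with muscle from the other, uninjected side (UIS) of that animal. The 12 Spalax gave 4 libraries of untreated females (control), 4 of injected animals without a tumor at 18 or 30 months, 3 of them male (tolerant, injected side), 2 each of IS and UIS from females with a benign granuloma operated at 14 months (animal 600) and 16 months (animal 976), and 2 each of IS and UIS with a fibrosarcoma at 18 months (female 2240) and 30 months (male 2230). The Spalax were either about 2 years or at least 10 years old, and the ages are not tied to animals. The 6 mice, all male, gave 3 libraries of untreated muscle (M1, M2 and M5) and 3 each of IS and UIS with fibrosarcoma at 14, 12 and 11 weeks (animals 1019, 1023 and 512). The Spalax groups also differ in their make-up by sex, and libraries of tumor-bearing animals carry another type of index than the rest, which cannot be told apart from the groups.

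Igf2 encodes a fetal growth factor that signals through the receptors Igf1r and Insr and is cleared by Igf2r. It lies in a cluster with H19, a long non-coding RNA. In the mouse Igf2 is transcribed from the paternal copy and H19 from the maternal copy, and both fall after birth in most tissues, while H19 stays high in skeletal muscle. Dlk1, Mest, Peg3 and Plagl1 are also expressed from the paternal copy, and Cdkn1c and, outside the nervous system, Grb10 mainly from the maternal copy. Which copy was transcribed was not measured here.

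Libraries held between 17025447 and 23386729 reads in Spalax and between 22143060 and 31179183 in mouse. Values are read counts divided by a size factor of the library, so they compare libraries for a given gene but not genes with each other, as transcript length is not accounted for. The tissue labels were checked against skeletal muscle fiber markers (9 of 12 with a row in Spalax, all 12 in mouse). Their summed value lay between 976464 and 2987710 in the 12 Spalax muscle libraries against 195 to 4331 in the 4 tumors, and between 1181080 and 4802290 in the 6 mouse muscle libraries against 229 to 83522 in the 3 tumors. Proliferation markers summed to between 6606 and 15718 in Spalax tumors and between 14353 and 19114 in mouse tumors, above every muscle library of their species. In such bulk tissue fewer cells of a type and less RNA per cell cannot be told apart.

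In the GENCODE vM21 annotation of the mouse build GRCm38, which the submitters' processing notes name, Igf2 is at chr7:142650766-142666816 and H19 at chr7:142575529-142578143, 72.6 kb apart on the minus strand. Cdkn1c is further along the same chromosome at chr7:143458339-143461050, and Peg3 is at chr7:6703892-6730431, both on the minus strand. The others are Mest at chr6:30723547-30748465 on the plus strand, Plagl1 at chr10:13060504-13131694 on the plus strand, Grb10 at chr11:11930508-12038683 on the minus strand and Dlk1 at chr12:109452823-109463336 on the plus strand. All values are per whole gene, over the exons of all transcripts. Of the exon bases of Igf2, 62.8% also lie under Gm49394, a gene model on the same strand, and 23.1% of those of Mest and 30.7% of those of Cdkn1c lie under genes on the opposite strand. The libraries were strand-specific, but the strand setting of the counting is not given in the sources used here, so reads of the opposite-strand overlaps cannot be assigned with certainty. Strand cannot separate Igf2 from Gm49394, and the gene models used in the counting may differ from this annotation.

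The mouse fibrosarcomas did not share a pattern of imprinted growth genes. The tumor of animal 512 held 5 of the 8 genes, Igf2, H19, Mest, Cdkn1c and Plagl1, at more than 2 times the level of every other mouse library, beside 3.13% of all 17931 genes that reached a value of 10 in any mouse library. The tumors of animals 1019 and 1023 were high in Dlk1 and Grb10 and held little Peg3. Only Mest, Plagl1 and Dlk1 were higher in the tumor than on the uninjected side in all 3 mice.

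Igf2 stood at 932, 938 and 1196 in control muscle of M1, M2 and M5, at 568, 446 and 688 in UIS of 1019, 1023 and 512, and at 424, 157 and 56293 in the tumors of the same animals. The tumors thus lay below all muscle in 2 mice, and 47.1-fold above the highest muscle library in the third. In fold change between sides, the tumor of 512 was 81.8-fold higher than its UIS, whereas Igf2 was 1.34-fold and 2.85-fold lower in the tumors of 1019 and 1023. Over the 3 animals the fitted log2 fold change was 1.48 ± 2.06 (SE), and without the tumor of 512 it was −1.11 ± 0.50.

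H19, like Igf2, was high in the tumor of 512 and low in the other 2 tumors. Its values were 14088, 33183 and 18975 in control, 14236, 13191 and 6015 in UIS, and 2127, 2236 and 114704 in IS, in the same order of animals. The tumor of 512 exceeded the next library, control M2, 3.46-fold, while the tumors of 1019 and 1023 were 6.69-fold and 5.90-fold below their own UIS and below every muscle library. For H19 the fit gave a log2 fold change of −0.35 ± 1.53 (SE), against 0.72 with scaling by total reads and 1.78 with DESeq2, and −2.26 ± 0.45 without the tumor of 512.

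**Figure D1:**
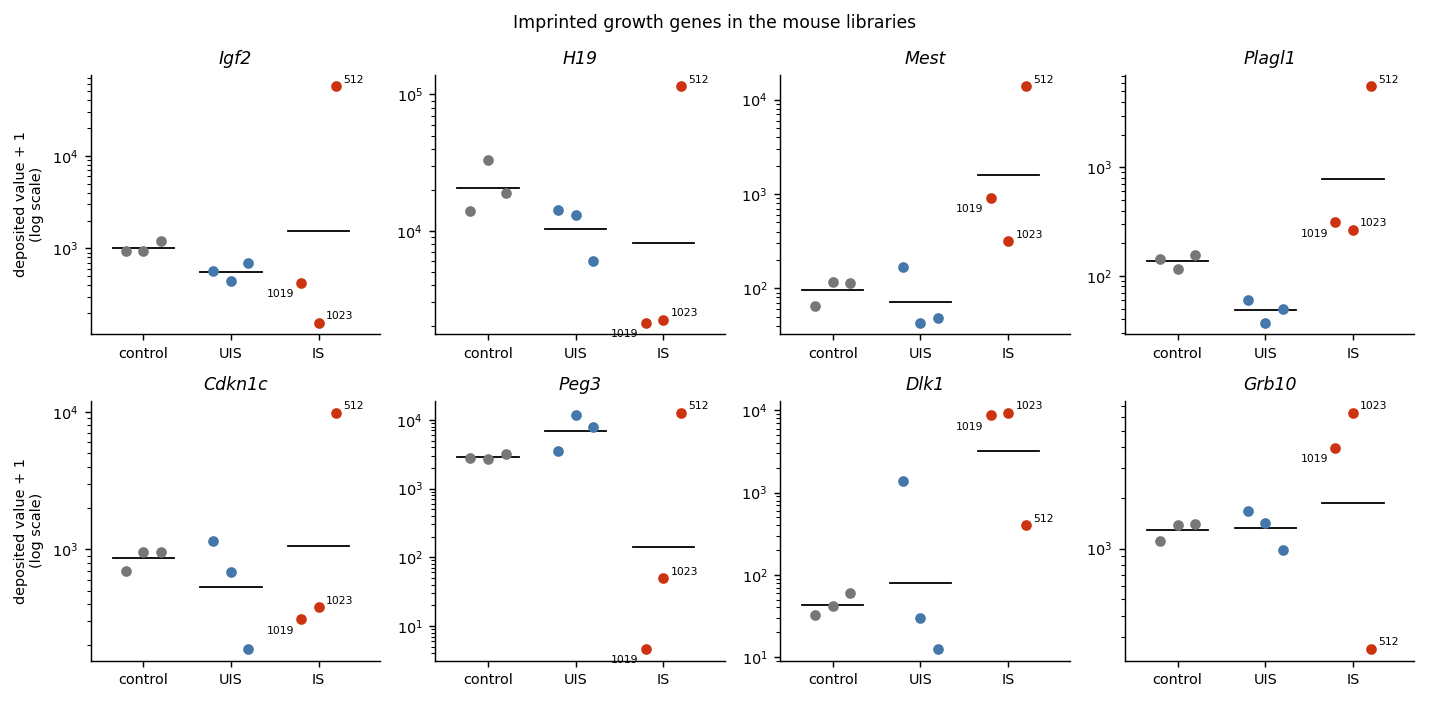
Values of the 8 imprinted growth genes in the 9 mouse libraries, as deposited value + 1 on a log axis. Each point is a library, the bars are geometric means of 3 libraries, and tumors are labelled with the animal; the tumor of 512 is the highest library for Igf2, H19, Mest, Plagl1, Cdkn1c and Peg3 and the lowest for Grb10.

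Plagl1 encodes a zinc finger transcription factor. It was low in all muscle, with 143, 116 and 155 in control and 59.3, 36.1 and 48.9 in UIS, and higher in every tumor, with 312 in 1019, 265 in 1023 and 5571 in 512. The ranges of the 3 mouse groups did not overlap. The tumors exceeded their own UIS 5.26-fold, 7.33-fold and 114-fold, and the fitted log2 fold change was 4.01 ± 1.16 (SE).

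Mest, which encodes a protein of the alpha/beta hydrolase family expressed in embryonic mesoderm, had the same order of tumors. Control libraries held 64.4, 115 and 114, UIS 168, 42.3 and 47.5, and the tumors 909, 313 and 13813. All tumors lay above all muscle libraries, and that of 512 was 15.2-fold above the next. For Mest the fit gave a log2 fold change of 4.48 ± 1.38 (SE). Cdkn1c, an inhibitor of cyclin-dependent kinases that restrains the cell cycle, was at 690, 959 and 948 in control and 1144, 679 and 187 in UIS. The tumors held 309, 377 and 9864, so that 512 was 52.7-fold above its UIS and the other 2 were 3.71-fold and 1.80-fold below theirs. Its groups overlapped, with a fitted log2 fold change of 0.99 ± 1.41 (SE).

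Peg3, a zinc finger protein gene with a part in fetal growth and muscle stem cells, was at 2788, 2735 and 3153 in control muscle and at 3518, 11673 and 8000 in UIS. It was at 3.62 in the tumor of 1019 and 48.0 in that of 1023, against 12734 in that of 512. The former tumors were 972-fold and 243-fold below their own UIS, and the latter was 1.59-fold above. In the fit the log2 fold change was −5.60 ± 2.68 (SE) over all animals and −8.84 ± 1.06 without the tumor of 512.

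Dlk1, which encodes a transmembrane protein of the Notch ligand family that is abundant in fetal tissue and holds back the maturation of fat cell precursors, ran the other way among the tumors. It was at 31.0, 41.2 and 58.9 in control and at 1383, 28.9 and 11.5 in UIS, and at 8790 in the tumor of 1019, 9412 in that of 1023 and 400 in that of 512. The UIS of 1019 lay above the tumor of 512 and 44.7-fold above the median of the other muscle libraries. This UIS library also held proliferation markers at a summed value of 1847, against 96.5 to 195 in the other 5 muscle libraries, with Mki67 at 404 against 11.1 to 44.3. The part of that signal in its Dlk1 level was not tested. Between IS and UIS the fitted log2 fold change of Dlk1 was 5.32 ± 2.01 (SE).

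Grb10, an adaptor that binds the insulin and IGF1 receptors and dampens their signal, was the most even of these genes in mouse muscle, with 1105 to 1403 in control and 982 to 1665 in UIS. It was 3966 and 6395 in the tumors of 1019 and 1023 and 254 in that of 512, the lowest mouse library. In the fit the log2 fold change was 0.49 ± 1.16 (SE). Without the tumor of 512 it was 1.93 ± 0.36.

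Over the 8 genes the fitted log2 fold changes had a median of 1.23, against 0.11 over all 15220 genes tested. By limma's adjusted p of at most 0.05, 2 of the 8 passed, Mest and Plagl1, both higher in IS, beside 45.1% of all genes (22.8% higher and 22.3% lower). With the animal as a replicate block 3 passed, Dlk1 with them, beside 6707 genes in place of 6870. Without the tumor of 512, 6 of 8 passed (H19, Dlk1, Mest, Peg3, Plagl1 and Grb10), beside 6238 genes. Without the UIS of 1023 or that of 512 none did, beside 4625 and 7023 genes. Since these differences were known when the genes were chosen, nothing is read from these counts.

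The tumor of 512 also stood apart in markers of satellite cells and myoblasts, the precursors of muscle fibers. The 8 markers summed to 24006 in it, against 2954 to 5498 in muscle and 779 and 1371 in the tumors of 1019 and 1023. Pax7, the satellite cell transcription factor, was at 1755 in 512 against 0 and 0.593 in the other 2 tumors and 17.3 to 153 in muscle. Myf5 was at 888, Myod1 at 2831 and Myog, which marks differentiating myoblasts, at 10921 in the tumor of 512. In the other tumors Myod1 was at 0.517 and 6.53 and Myog at 1.03 and 16.0. Mature fiber markers summed to 83522 in the tumor of 512, against 229 in 1019 and 23514 in 1023, all far below muscle. The part of the cells that carried these markers in the levels of Igf2 and H19 was not tested.

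**Figure D2:**
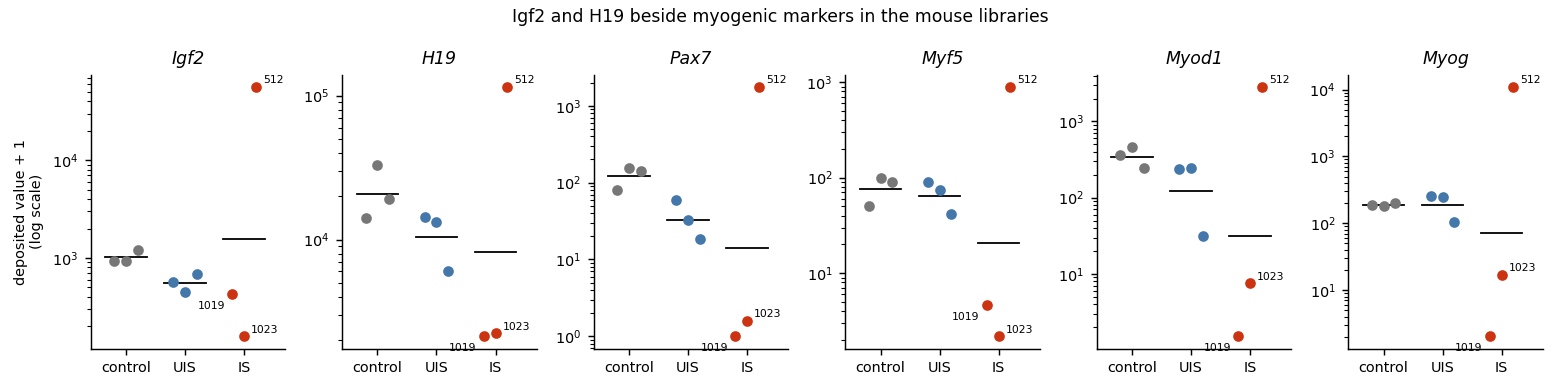
Igf2 and H19 beside 4 myogenic transcription factors in the 9 mouse libraries, as deposited value + 1 on a log axis, with the geometric mean of each group of 3 as a bar. In all 6 panels the tumor of 512 is the highest library and those of 1019 and 1023 are the lowest 2.

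The 5 genes whose log2 values were most like those of H19 over the 9 mouse libraries were Pax7 (Pearson r = 0.98), Fgfr4 (0.98), Col26a1 (0.97), Ncald (0.96) and Myf5 (0.96). For Igf2 they were Iqsec3 (0.97), Zfp568 (0.97), Sytl2 (0.96), Myl4 (0.96) and Megf10 (0.96). Each of these had its highest value in the tumor of 512, so these likenesses rest largely on that library. Over the 6 mouse muscle libraries alone the genes nearest to Igf2 were others, namely Egfr, Sorcs1, Sprn, Akr1c14 and Fam20a, with r from 0.98 to 0.99, and those nearest to H19 were Cox4i2, Dnmt3b, Fbxw9, Mydgf and Sppl2b, each with r = 0.99. With 6 libraries and 13675 genes such values are a description.

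Genes next to the members on the mouse chromosomes were read beside them. Zim1, 7.44 kb from Peg3 and expressed from the maternal copy, was at 0 and 4.15 in the tumors of 1019 and 1023 and at 1704 in that of 512, against 145 to 2724 in the 6 muscle libraries. Usp29, whose start lies 0.147 kb from that of Peg3, was at 2.07 and 3.56 in the same 2 tumors and at 179 in that of 512. Muscle held it at 21.8 to 311. Peg3, Zim1 and Usp29 were thus lowest in the same 2 tumors.

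Around Dlk1, the maternally expressed non-coding RNA Meg3, 77.7 kb away, rose in all 3 tumors to 5274 in 1019, 7790 in 1023 and 2542 in 512, against 168 to 752 in muscle (log2 fold change IS against UIS 4.21 ± 0.59 (SE), limma adjusted p = 0.00336). Rian and Mirg, further non-coding RNAs of this cluster, rose with adjusted p = 0.0118 and 0.0137, and the retrotransposon-derived gene Rtl1, on the opposite strand, from 1.44 to 8.46 in UIS to 39.3 to 83.7 in IS (adjusted p = 0.00574). In the UIS of 1019, where Dlk1 was at 1383, Meg3 was at 531, within the muscle range. Meg3, Rian, Mirg and Rtl1 belong to lists chosen with earlier results of these data known, so their adjusted p values are given as description.

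**Figure D3:**
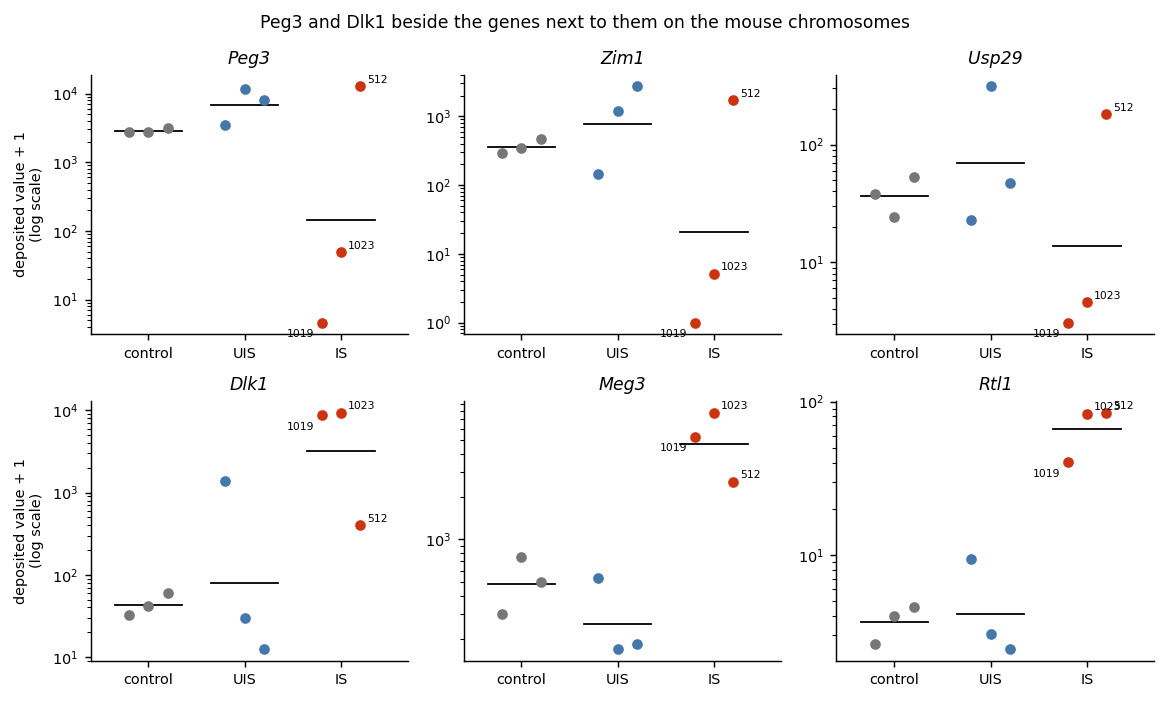
Peg3 with its neighbours Zim1 and Usp29 (upper row) and Dlk1 with Meg3 and Rtl1 (lower row) in the 9 mouse libraries, as deposited value + 1 on a log axis, with geometric means of 3 libraries as bars. In the upper row the tumors of 1019 and 1023 lie below all other libraries, and in the lower row those of 1019 and 1023 lie above all muscle libraries.

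Near Igf2, the antisense transcript Igf2os was at 667 in the tumor of 512 and at most 10.1 elsewhere, the microRNA gene Mir483 had reads in the tumor of 512 alone among the 9 libraries, and Ins2 was at 0 in 8 libraries and at 0.815 in M1. Because Igf2os overlaps Igf2, its reads and those of Igf2 cannot be told apart with certainty. The non-coding RNA Nctc1, 16.9 kb from H19, went against H19 in the tumor of 512: it was at 0, 16.0 and 44.7 in the tumors of 1019, 1023 and 512 and at 1370 to 3230 in muscle. Around Mest, Cep41 was higher in all tumors (160, 231 and 638 against 10.1 to 49.6 in muscle), and Copg2, which overlaps the end of Mest, was at 559, 946 and 956 against 419 to 586. Kcnq1ot1, Phlda2 and Slc22a18, in the cluster of Cdkn1c, did not share the level of Cdkn1c in the tumor of 512. Kcnq1ot1 was at 389 there against 451 in its UIS, and Phlda2 and Slc22a18 stayed below 5 in it.

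In Spalax no tumor carried the whole set either. The granuloma of animal 600 held 2 of 7 genes, Igf2 and Plagl1, at more than 2 times the level of any other Spalax library, beside 1.81% of all 16982 genes that reached a value of 10. The other granuloma and both fibrosarcomas had less Igf2 than every muscle library. Grb10 and Dlk1 were lower in all 4 Spalax tumors than on the uninjected side of the same animal, and Plagl1 was higher in all 4.

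Igf2 was at 502, 548, 248 and 409 in control (1042, 1075, 2095 and 6038) and at 1182, 758, 342 and 456 in tolerant muscle (2251, 2261, 2218 and 2375). In the granuloma animals it was at 382 and 211 in UIS of 600 and 976 and at 17165 and 89.4 in IS. In the fibrosarcoma animals it was at 794 and 486 in UIS of 2240 and 2230 and at 14.8 and 65.4 in IS. The granuloma of 600 was 44.9-fold above its UIS and 14.5-fold above the next library, whereas Igf2 was 2.36-fold lower in the granuloma of 976 and 53.8-fold and 7.44-fold lower in the fibrosarcomas. The fitted log2 fold change was 2.13 ± 2.35 (SE) in granuloma and −4.27 ± 0.81 (SE) in fibrosarcoma.

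By group medians Igf2 ran from granuloma IS (8627) through fibrosarcoma UIS (640), tolerant (607), control (456) and granuloma UIS (297) to fibrosarcoma IS (40.1). Each neighbouring pair in this order overlapped except granuloma UIS and fibrosarcoma IS. In mouse the order was control (938), UIS (568) and IS (424), where UIS lay below control and IS, with 157 to 56293, spanned both.

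The granuloma of 600 did not share the myogenic markers of mouse tumor 512. Its 8 satellite cell and myoblast markers summed to 112, with Pax7 at 0, Myf5 at 1.45, Myod1 at 9.44 and Myog at 19.6, against sums of 3354 to 6670 in Spalax muscle and 13.5 to 16.3 in the other 3 tumors. It held the receptor gene Igf1r at 9753, against 38.7 in the granuloma of 976 and 86.4 to 414 in all other Spalax libraries. Fibroblast markers summed to 2104390 in 600 and 975312 in 976, against 7632 to 221894 in muscle and 121038 to 435429 in the fibrosarcomas. Over all 16 Spalax libraries the genes most like Igf2 were Slc26a5 (Pearson r = 0.88), Rnf212 (0.87), Tenm1 (0.86), Lphn3 (0.84) and Gpat2 (0.83), and each of them peaked in the granuloma of 600.

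**Figure D4:**
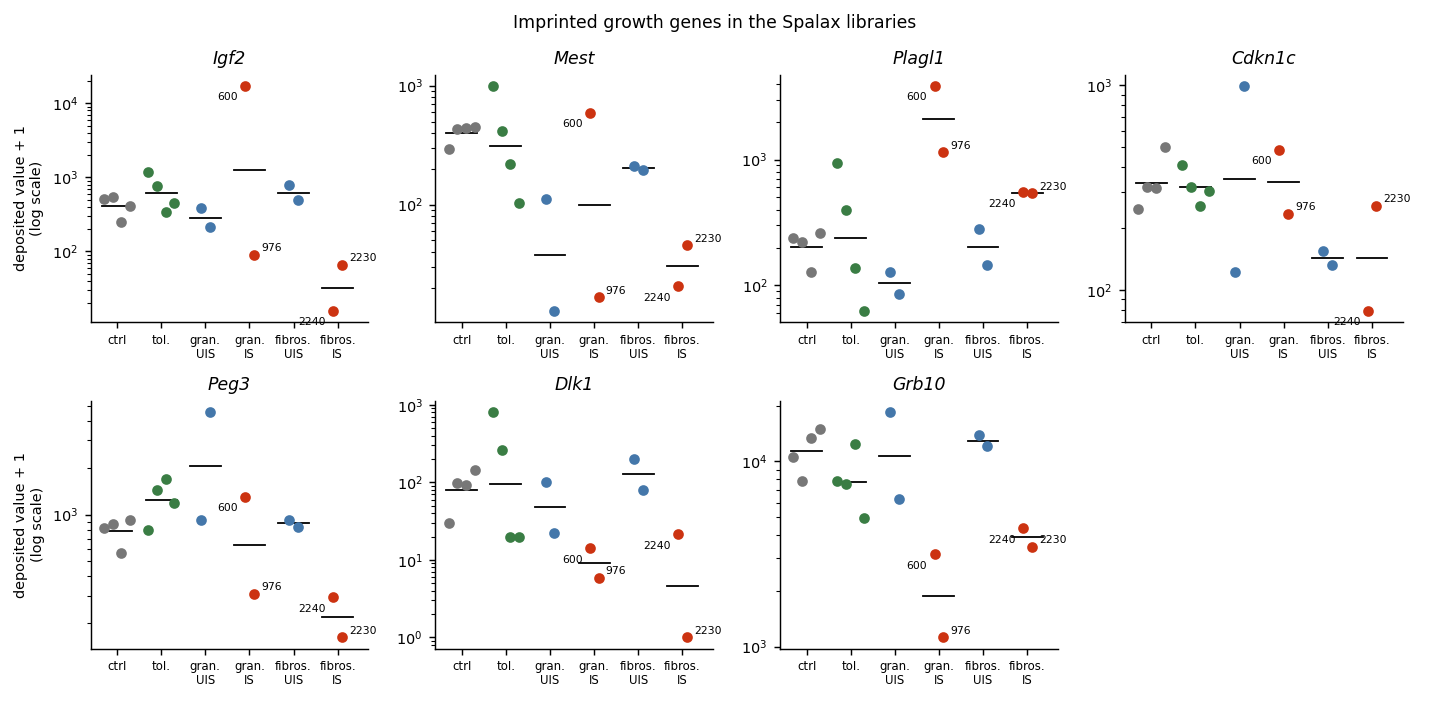
Values of the 7 imprinted growth genes with a row in the 16 Spalax libraries, as deposited value + 1 on a log axis (ctrl, control; tol., tolerant; gran., granuloma; fibros., fibrosarcoma). Points are libraries, bars are geometric means of 4 (control, tolerant) or 2 libraries, and tumors carry the animal number; Igf2 is highest in granuloma 600 and lowest in fibrosarcoma 2240, and Grb10 is lower in all 4 tumors than in any muscle library.

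Plagl1 was at 236, 220, 126 and 258 in control, 941, 393, 136 and 61.7 in tolerant, 127 and 84.8 in granuloma UIS and 279 and 144 in fibrosarcoma UIS. Granuloma IS held 3857 and 1141 and fibrosarcoma IS 549 and 538, in the order of animals given above. The granulomas exceeded all muscle, and the fibrosarcomas exceeded all muscle but tolerant 2251. The tumors were 30.5-fold, 13.5-fold, 1.97-fold and 3.75-fold above their own UIS, with fitted log2 fold changes of 4.33 ± 0.67 (SE) in granuloma and 1.44 ± 0.42 (SE) in fibrosarcoma. With the mice, Plagl1 was higher in the tumor than on the uninjected side in 7 of 7 animals, and none of the other members had the same direction in all animals. The share of all genes with 1 direction in all 7 animals was not counted, so nothing is read from this.

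Grb10 was at 7862 to 15048 in control, 4970 to 12404 in tolerant, 18481 and 6269 in granuloma UIS and 13887 and 12085 in fibrosarcoma UIS. It was at 3160 and 1121 in granuloma IS and 4358 and 3468 in fibrosarcoma IS, below every muscle library. The tumors were 5.85-fold, 5.59-fold, 3.19-fold and 3.48-fold below their own UIS. The fitted log2 fold changes were −2.51 ± 0.73 (SE) in granuloma and −1.74 ± 0.27 (SE) in fibrosarcoma.

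Dlk1 was low in Spalax muscle, at 28.7 to 142 in control, 18.5 to 807 in tolerant, 101 and 21.2 in granuloma UIS and 200 and 79.6 in fibrosarcoma UIS. It was lower in the tumors, with 13.1 and 4.83 in granuloma IS and 20.3 in the fibrosarcoma of 2240. The fibrosarcoma of 2230 had 0 Dlk1 reads of 21594853, which allows a value of up to 1.80 (3 reads, covering counting error only), so it was at least 44.3-fold lower than its UIS. The fitted log2 fold change was −2.40 ± 1.06 (SE) in granuloma and −4.79 ± 1.60 (SE) in fibrosarcoma, and the latter depends on the pseudocount because of the value of 0. In mouse, every tumor had more Dlk1 than its UIS, and in Spalax every tumor had less.

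Mest was higher than in UIS in both granulomas and lower in both fibrosarcomas. It was at 295, 430, 438 and 445 in control, 997, 416, 217 and 103 in tolerant, 111 and 11.8 in granuloma UIS and 209 and 196 in fibrosarcoma UIS. The granulomas held 593 and 15.7, that is 5.35-fold and 1.33-fold above their UIS, and the fibrosarcomas 19.7 and 44.4, that is 10.6-fold and 4.42-fold below. The fitted log2 fold changes were 1.40 ± 1.94 (SE) and −2.73 ± 0.55 (SE).

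Peg3 was at 563 to 914 in control, 796 to 1699 in tolerant, 927 and 4555 in granuloma UIS and 921 and 835 in fibrosarcoma UIS. Tumor values were 1296 and 308 in granuloma and 293 and 161 in fibrosarcoma, so 3 of 4 tumors lay below all muscle. In no Spalax tumor did Peg3 come near the values of 3.62 and 48.0 of the mouse tumors 1019 and 1023, although the 2 tables were normalised separately and levels are not tested across them. For Peg3 the fit gave a log2 fold change of −1.70 ± 0.99 (SE) in granuloma and −2.01 ± 0.38 (SE) in fibrosarcoma. Cdkn1c was at 248 to 499 in control, 257 to 406 in tolerant, 122 and 993 in granuloma UIS, 154 and 132 in fibrosarcoma UIS, 483 and 234 in granuloma IS and 78.1 and 257 in fibrosarcoma IS. It was higher in one tumor and lower in the other than in UIS for both tumor types, with fitted log2 fold changes of −0.05 ± 1.05 (SE) and −0.01 ± 0.67 (SE), which became 0.69 and 0.79 with scaling by total reads.

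In granuloma 1 of 7 members passed limma's adjusted p, Plagl1, higher in IS, beside 24.3% of 14735 genes (11.7% higher and 12.6% lower). In fibrosarcoma 4 of 7 passed, Igf2, Mest, Peg3 and Grb10, all lower in IS, beside 36.3% of 14696 genes (17.4% higher and 19% lower). With the animal as a replicate block 2 passed in granuloma (Plagl1 and Grb10) and 5 in fibrosarcoma (Dlk1 with the former 4), beside 3108 and 4886 genes in place of 3581 and 5339. The members' median log2 fold change was −0.05 in granuloma and −2.01 in fibrosarcoma, and over all genes −0.01 and 0.03. None of these member calls held in every fit with 1 library left out, which leaves 1 library in a group. Such fits gave log2 fold changes of 3.45 to 5.20 for Plagl1 in granuloma. In fibrosarcoma they gave −5.30 to −3.23 for Igf2, −3.30 to −2.16 for Mest, −2.44 to −1.58 for Peg3 and −1.90 to −1.57 for Grb10. Nothing is read from the counts, since the same differences were known when the genes were chosen.

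**Figure D5:**
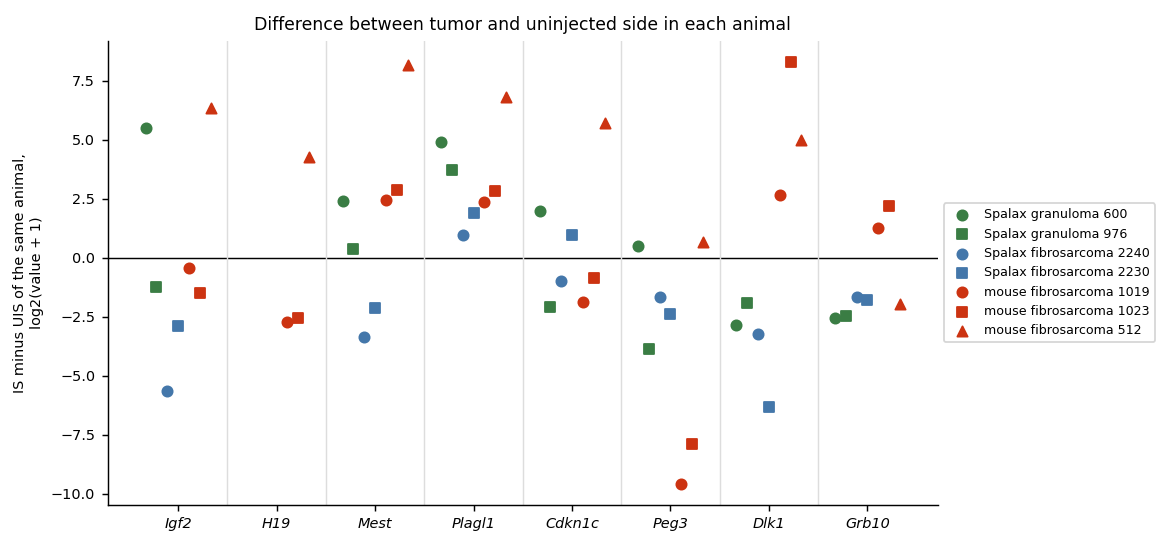
IS minus UIS of the same animal on the log2(value + 1) scale for each imprinted growth gene. Each symbol is 1 of 7 tumor-bearing animals (H19 in the 3 mice only); all 7 lie above 0 for Plagl1, the 4 Spalax animals lie below 0 for Dlk1 and Grb10, and the 3 mice lie above 0 for Dlk1.

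The study set the granuloma beside the fibrosarcoma and Spalax beside the mouse. The difference of the fitted log2 fold changes, fibrosarcoma minus granuloma, was −6.40 ± 2.98 (SE) for Igf2, −4.13 ± 2.37 for Mest, −2.89 ± 0.87 for Plagl1 and −2.39 ± 2.10 for Dlk1, and between −0.31 and 0.78 for Peg3, Cdkn1c and Grb10. For Igf2 it was −2.61 without the granuloma of 600 and −10.2 without that of 976, and for Mest the same libraries gave −1.55 and −6.70. For Dlk1 it was −4.60 without the fibrosarcoma of 2240 and −0.18 without that of 2230. Spalax fibrosarcoma minus mouse fibrosarcoma gave −10.11 ± 3.09 (SE) for Dlk1, −7.21 ± 1.92 for Mest, −5.74 ± 2.88 for Igf2, 3.59 ± 3.65 for Peg3, −2.57 ± 1.60 for Plagl1, −2.23 ± 1.58 for Grb10 and −1.0 ± 2.0 for Cdkn1c. The direction for Peg3 turned with the method, to −1.13 with edgeR and −1.09 with DESeq2, and that for Cdkn1c turned to 0.62 without the mouse tumor 512. No member passed limma's adjusted p in the former (0% of 14258 genes) or the latter (3.95% of 11085 genes). At an unadjusted p under 0.05 they numbered 1 (beside 4.88% of genes) and 2 (21.6%), with edgeR 0 (0%) and 0 (3.53%), and with DESeq2 1 (0.54%) and 1 (15.4%), the latter with no adjusted p for Igf2, Dlk1 and Plagl1. Without the mouse tumor 512, 3 members passed the latter comparison, namely Mest, Peg3 and Grb10, beside 258 genes in place of 438. Without the mouse UIS of 1019 Dlk1 passed, beside 426 genes.

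Muscle away from the tumor was compared with untreated muscle to ask whether tumor-bearing animals differ there too. Here the members were tested by the fit across all genes. These comparisons share their control libraries, and the UIS libraries with those against the tumors. In mouse, Plagl1 was lower in UIS (59.3, 36.1 and 48.9) than in control (143, 116 and 155), by −1.52 ± 0.34 on the log2 scale (SE), and Igf2 by −0.86 ± 0.26. Peg3 differed by 1.26 ± 0.43, with 3518 to 11673 in UIS against 2735 to 3153. These 3 of 8 members had groups that did not overlap, beside 21.2% of 14792 genes, and none passed limma's adjusted p (Plagl1 0.33, Igf2 0.43, Peg3 0.44), which 0% of all genes passed. H19 differed by −0.99 ± 0.46 (adjusted p = 0.47). At an unadjusted p under 0.05 the members numbered 3 (beside 11% of genes), with edgeR 0 (0%), and with DESeq2 1 (2.31%), Plagl1 at an adjusted p of 0.0112, with 0.21 to 0.86 over the other alternatives. Markers of other cells moved with these groups. The 7 white fat cell markers summed to between 92980 and 157430 in control and between 10381 and 87979 in UIS, and the 4 brown fat cell markers to between 36167 and 59062 against 924 to 20965. The 5 Schwann cell and nerve markers summed to between 2774 and 5727 against 1613 to 2445, and the 8 fibroblast markers, which overlapped, to between 23796 and 60278 against 4149 to 32060. Their part in these differences was not tested.

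In Spalax, Mest was lower in the 4 UIS libraries (111, 11.8, 209 and 196) than in the 4 controls (295 to 445), by −2.18 ± 0.78 on the log2 scale (SE, limma adjusted p = 0.24). It was the 1 of 7 members whose groups did not overlap, beside 12.7% of 13909 genes. The 4 endothelial markers moved with these groups and summed to between 9426 and 11891 in control against 7428 to 9052 in UIS. The 7 white fat cell markers had a median log2 difference of −1.88 and the 5 Schwann cell and nerve markers of −1.19, against −0.03 over all genes, with 2 and 3 of them at an unadjusted p under 0.05. Their part in the level of Mest was not tested. No member passed between UIS and control (0% of genes), and by unadjusted p 1 did (16.6%), by edgeR 0 (0%) and by DESeq2 0 (3.71%). Igf2 differed by 0.04 ± 0.40, Grb10 by 0.05 ± 0.35 and Peg3 by 0.79 ± 0.50 (adjusted p = 0.97, 0.95 and 0.44).

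Between tolerant and control, Peg3 differed by 0.66 ± 0.27 on the log2 scale (SE, limma adjusted p = 0.92) and Igf2 by 0.58 ± 0.40 (adjusted p = 0.92). No member passed (0% of 14020 genes), 1 had an unadjusted p under 0.05 (5.23%), edgeR called 0 (0%) and DESeq2 0 (0.428%), and the groups of no member were apart (3.86% of genes were). Between UIS and tolerant, Mest differed by −1.83 ± 0.96 and Grb10 by 0.60 ± 0.39 (both adjusted p = 0.88). No member passed (0.00713% of 14029 genes), 0 had an unadjusted p under 0.05 (5.12%), edgeR called 0 (0.00713%) and DESeq2 0 (0.271%), and none had groups apart (4.11%).

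The granuloma UIS of 976 held the highest Peg3 (4555) and Cdkn1c (993) of the 16 Spalax libraries. In the same library the insulin receptor Insr was at 12449 against 1087 to 4495 in the other 11 muscle libraries, its substrate Irs1 at 8682 against 310 to 1553 and Irs2 at 21437 against 560 to 7950. Its fiber marker sum of 1040620 was the second lowest of the 12. The part of the state of this muscle in its member levels was not tested.

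The tolerant library 2251 held the highest value of the 12 Spalax muscle libraries for Igf2 (1182), Dlk1 (807), Mest (997) and Plagl1 (941). It also held the highest sum of fibroblast markers among them, 221894 against 7632 to 46886, the highest sum of macrophage markers, 12697 against 858 to 3183, and the lowest sum of fiber markers, 976464. The part of these other cells in its member levels was not tested. Over the 12 muscle libraries the genes most like Igf2 were Abcc10 (Pearson r = 0.96), Golm1 (0.95), Cdk14 (0.94), Runx1t1 (0.93) and Adamts10 (0.93), each highest in 2251.

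Listed ligand and receptor genes related to Igf2 were tested in full, by limma across all genes. This list and those that follow, also in the closing section, were chosen with earlier results of these data known. Their adjusted p values are therefore given as description. Across all genes 24.3% passed in granuloma, 36.3% in Spalax fibrosarcoma and 45.1% in mouse fibrosarcoma. Of 5 ligand and receptor genes, 4 of them tested in mouse, Igf1 rose in granuloma (log2 fold change 3.16 ± 0.74 (SE), adjusted p = 0.0364) and in mouse fibrosarcoma (1.51 ± 0.47, adjusted p = 0.0385). The insulin receptor Insr fell in Spalax fibrosarcoma (−1.85 ± 0.35, adjusted p = 0.0205) and in mouse (−2.09 ± 0.40, adjusted p = 0.00825), and its relative Insrr fell in Spalax fibrosarcoma (−3.65 ± 0.64, adjusted p = 0.0174). Igf1r and Igf2r, which clears Igf2, passed in none of the 3 comparisons. Igf2r was at 10272 in mouse tumor 1023 against 1694 to 3545 in all other mouse libraries.

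Of the 8 genes listed as IGF binding proteins, which carry Igf1 and Igf2 and limit or extend their action, 7 were tested in each comparison. Those called higher and lower numbered 2 and 1 in granuloma, beside 24.3% of all genes. They numbered 1 and 0 in Spalax fibrosarcoma (36.3% of all genes) and 3 and 1 in mouse (45.1%). In granuloma Igfbp2 (3.98 ± 0.85 (SE), limma adjusted p = 0.0294) and Igfbp4 (2.37 ± 0.34, adjusted p = 0.0124) rose and Igfbp6, which prefers Igf2, fell (−3.26 ± 0.50, adjusted p = 0.0147). In Spalax fibrosarcoma Igfbp3, the main carrier in serum, rose (2.16 ± 0.45, adjusted p = 0.0257). In mouse Igfbp2, Igfbp3 and Igfbp4 rose by 5.59 ± 1.39, 2.03 ± 0.45 and 2.09 ± 0.51 (adjusted p = 0.0188, 0.0129 and 0.0176) and Igfals fell by 5.97 (SE 0.47, adjusted p = 0.00106). Igfbp5 passed in none and was at 19853 in mouse tumor 512 against 1124 and 278 in the other 2 mouse tumors.

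Of 15 further genes expressed from the paternal copy, 9 were tested in granuloma, 11 in Spalax fibrosarcoma and 12 in mouse. Those called higher and lower numbered 2 and 1 in granuloma, beside 24.3% of all genes. They numbered 0 and 1 in Spalax fibrosarcoma (36.3% of all genes) and 4 and 2 in mouse (45.1%). Snrpn, a splicing protein gene, fell in all 3 comparisons, by −3.39 ± 0.79, −3.53 ± 0.64 and −5.45 ± 0.89 on the log2 scale (SE, limma adjusted p = 0.0356, 0.0185 and 0.00522). In granuloma Peg10, derived from a retrotransposon, and its neighbour Sgce rose (4.63 ± 0.70 and 3.63 ± 0.61, adjusted p = 0.0141 and 0.0174), and in mouse they rose again with Rtl1 and Peg12 (Peg10 5.85 ± 0.98, adjusted p = 0.00558), while Zrsr1 fell. The median log2 fold changes of the list were −0.23, −0.04 and 1.21. Zdbf2 was at 2751 in mouse tumor 512 and at most 93.6 in the other mouse libraries, and passed in none.

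Of 12 further genes listed as expressed from the maternal copy in at least some tissues, a list that also holds Igf2r, 6, 6 and 8 were tested. Those called higher and lower numbered 1 and 2 in granuloma, beside 24.3% of all genes. They numbered 1 and 1 in Spalax fibrosarcoma (36.3% of all genes) and 3 and 1 in mouse (45.1%). Asb4 fell in all 3 comparisons, by −8.14 ± 0.52, −8.28 ± 1.57 and −2.95 ± 0.53 (SE, limma adjusted p = 0.0049, 0.0208 and 0.00666). In granuloma Phlda2, which restrains placental growth and lies near Cdkn1c, rose (3.41 ± 0.71, adjusted p = 0.0273) and Ube3a fell (−1.45 ± 0.36, adjusted p = 0.0407). In Spalax fibrosarcoma Slc22a18 rose (3.23 ± 0.61, adjusted p = 0.0207), and in mouse the other calls were the rises of Meg3, Rian and Mirg. The list calls of granuloma and Spalax fibrosarcoma rest on 2 libraries a group: leaving out 1 library left between 98 and 2882 genes called in granuloma in place of 3581, and without either UIS library 0 in fibrosarcoma in place of 5339, against 8397 without the tumor of 2240 and 8290 without that of 2230.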

How the data were processed

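RNA-Seq libraries of 16 Spalax and 9 mouse samples were used. Per the labels and the methods of the study, reads were trimmed, aligned with TopHat and counted per gene. The study names TopHat2, whereas the submitters' processing notes name TopHat version 1.4.1, with GRCm38, HTSeq and DESeq. Per the study, Spalax reads were mapped to a published Spalax genome and mouse reads to the NCBI mouse reference. The deposited values are a signal made by the authors from read counts divided by 1 size factor per library. Whole reads were recovered by dividing by the value of 1 read, with 100% of values whole within 0.001. In the Spalax table a comma in 2387 gene names stood for the letter t. Values were tested as log2(value + 1) with limma 3.58.1 (lmFit, eBayes with trend) in R 4.3.3, so fold changes of low genes are understated, after leaving out genes that did not reach a value of 10 in a number of libraries equal to the size of the smaller group. P-values were adjusted by Benjamini-Hochberg over all genes tested and called at 0.05. They measure the spread between these samples. Alternatives were edgeR 4.0.16 (quasi-likelihood) and DESeq2 1.42.0 on recovered reads, scaling by total reads, pseudocounts of 0.1 and 10, no filter, 1 model per species, the animal as replicate block and leaving out each library. IS and UIS of an animal carry its number, which is where the pairing comes from. The main fits held no term for the animal, and it entered only as the replicate block among the alternatives. Correlations of the deviations within an animal were 0.009 and −0.002 for the Spalax tumor types and 0.047 to 0.178 in mouse. Between different animals they were −0.009 and 0.002 for the Spalax tumor types and −0.164 to 0.095 in mouse. Members and gene lists were chosen with earlier results of these data known. All members were named, with genes next to them on the mouse chromosomes, IGF receptor, binding protein and imprinted genes that passed the test, and the 5 genes with the highest Pearson r to Igf2 and to H19. Other genes with values (Igf1r, Igf2r, Igfbp5, Zdbf2, Irs1, Irs2 and the genes of the closing section) were named after their values were seen. The Spalax–mouse comparison used 11085 genes shared by symbol. No sequence was used.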

Additional observations from a re-analysis of the deposited data

Results flagged for a closer look

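In groups of 4, 3 of 21 sets of deposited values, not log2 values, held a library beyond Dixon's limit. Chance gives about 1 in 20 if values are normally distributed. The share of all genes was not counted, so nothing is read from this number. Mest was at 295 in control 1042, below the other 3 controls. Peg3 at 4555 and Cdkn1c at 993 stood above the other 3 Spalax UIS libraries in the granuloma UIS of 976. Both of these flags come from the same library, in a set that pools the UIS of both tumor types.

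In 4 combinations of a member with a pair of tumor types, all animals of one type moved one way and all of the other type the opposite way. The share of all genes that did so was not counted. These differences were known when the genes were chosen and are given as description. No member passed limma's adjusted p in the differences between the Spalax tumor types and between Spalax and mouse fibrosarcoma, and that between granuloma and mouse was not tested. For Mest the log2 fold change between IS and UIS was 1.40 in granuloma and −2.73 in Spalax fibrosarcoma, a difference of −4.13. It was 4.48 in mouse fibrosarcoma, 7.21 above that of Spalax fibrosarcoma. For Dlk1 it was 5.32 in mouse, which was 7.72 above granuloma (−2.40) and 10.1 above Spalax fibrosarcoma (−4.79).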

How the results depend on the processing

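The log2 fold changes of the members between IS and UIS moved by less than the larger SD of the log2 values among the IS or the UIS libraries under all alternatives in granuloma (84 of 84 values) and mouse (112 of 112) and in 81 of 84 in Spalax fibrosarcoma. That SD was wide, and directions still turned. Without the granuloma of 600 Igf2 was −1.66 and Mest −1.18, and Mest was −0.17 without the UIS of 976. Without the mouse tumor 512 Igf2 was −1.11 and Cdkn1c −0.62. Leaving out a library gave −0.40 to 1.93 for Grb10 and −2.26 to 0.62 for H19 in mouse, and −1.56 to 1.46 and −0.86 to 0.85 for Cdkn1c in granuloma and Spalax fibrosarcoma. Counts of members called moved more. With DESeq2 they were 3 in granuloma (beside 5383 of 14735 genes), 1 in mouse fibrosarcoma (8214 of 15220, with no adjusted p for Igf2, H19, Dlk1 and Plagl1), 1 in mouse UIS against control (342 of 14792) and 1 in each of the fibrosarcoma-granuloma (77 of 14258) and Spalax-mouse (1711 of 11085) differences. In granuloma 2 were called with 1 model over all libraries (6314 genes) and 2 with the replicate block, which gave 5 and 3 in Spalax and mouse fibrosarcoma. Leaving out 1 library gave 0 to 6 in mouse, beside 4238 to 7023 genes called. In the Spalax tumor types no member call held in every such fit, and in the Spalax-mouse difference the members called turned with the library left out. Where 1 sample was left in a group, that sample was assumed to vary like the others.

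Scaling by total reads moved the median log2 fold change of all genes to 0.72, 0.83 and 1.16 and the split of higher and lower calls from 1718 and 1863 to 3371 and 1127 in granuloma, from 2550 and 2789 to 5174 and 1664 in Spalax fibrosarcoma and from 3469 and 3401 to 7573 and 1676 in mouse. It gave log2 fold changes of 0.69 and 0.79 for Cdkn1c in granuloma and Spalax fibrosarcoma and 0.72 for H19 in mouse, above 0 where the values reported were below it. DESeq2 gave 1.78 for H19 and −0.89 for Peg3 in mouse.

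In muscle the small differences changed sign. Between Spalax UIS and control, Dlk1 became 0.17 with edgeR, 0.17 with DESeq2 and 0.0044 with a pseudocount of 10, and Cdkn1c 0.043 with edgeR and 0.061 with DESeq2. Leaving out a library gave −0.27 to 0.37 for Igf2, −0.49 to 0.58 for Dlk1 and −0.16 to 0.36 for Grb10. Between tolerant and control, Mest became 0.17 with edgeR and 0.15 with DESeq2 and Cdkn1c 0.044 with total reads, and leaving out a library gave −0.76 to 1.03 for Dlk1, −0.91 to 0.18 for Mest, −0.21 to 0.12 for Cdkn1c and −0.44 to 0.86 for Plagl1. Between UIS and tolerant, Cdkn1c became 0.13 with edgeR and DESeq2, and leaving out a library gave −1.05 to 0.74 for Dlk1 and −0.46 to 0.35 for Peg3. In mouse UIS against control, Grb10 became −0.23 with total reads, and leaving out a library gave −1.16 to 2.23 for Dlk1, −1.26 to 0.041 for Cdkn1c and −0.13 to 0.25 for Grb10. The cause was not tested.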

Other observations

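Of 13 genes listed as imprint maintenance factors, 8 were tested in each Spalax tumor comparison and 11 in mouse. The list also holds genes with other roles, Dnmt3a and Tet3 among them. It was chosen with earlier results of these data known. In granuloma 1 rose and 1 fell, beside 24.3% of all genes called. In Spalax fibrosarcoma 3 rose and 1 fell (36.3% of all genes), and in mouse 5 rose (45.1%). Uhrf1, which guides the maintenance DNA methyltransferase, rose in granuloma, Spalax fibrosarcoma and mouse fibrosarcoma (log2 fold changes 5.72 ± 0.60 (SE) and limma adjusted p = 0.00747 in granuloma, 6.999 ± 0.447 and adjusted p = 0.00251 in Spalax fibrosarcoma, 4.61 ± 1.01 and adjusted p = 0.0125 in mouse). The maintenance enzyme Dnmt1 rose in Spalax and mouse fibrosarcoma (1.89 ± 0.27 and 3.28 ± 0.34, limma adjusted p = 0.0112 and 0.00169), as did Trim28, a corepressor that protects imprints (1.05 ± 0.26 and 1.21 ± 0.30, limma adjusted p = 0.0403 and 0.0195). In mouse Zfp57, its partner at imprinted regions, and the dioxygenase gene Tet3 rose too (3.33 ± 0.59 and 1.59 ± 0.20, limma adjusted p = 0.00654 and 0.00279). Dnmt3a, a de novo methyltransferase, fell in both Spalax tumor types (−1.44 ± 0.37 and −1.41 ± 0.24, limma adjusted p = 0.0453 and 0.0165). Proliferation markers were higher in all tumors than in muscle, and their part in these values was not tested.

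Of 10 genes of the Notch pathway, to whose ligands Dlk1 is related, Notch2 rose in all 3 comparisons (2.42 ± 0.39, 2.00 ± 0.44 and 2.15 ± 0.26, limma adjusted p = 0.0155, 0.0287 and 0.00248). Notch4 fell in granuloma and Spalax fibrosarcoma, and Notch3 and the targets Hes1 and Hey1 fell in Spalax fibrosarcoma. Among 7 insulin receptor substrates and their partners, Shc1 rose and Akt2 fell in all 3 comparisons. Irs2 fell in Spalax fibrosarcoma and in mouse, and the rest of this list passed in none. Of all genes, 24.3% were called in granuloma, 36.3% in Spalax fibrosarcoma and 45.1% in mouse.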
